A study of Zea mays with 4 samples.

Results

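The leaf surface of maize is sealed by a cuticle, a layer of cutin and wax made by the epidermis. Wax begins as fatty acids that a membrane complex, the fatty acid elongase, lengthens into very long chains. These chains then become aldehydes, alkanes and alcohols that are carried to the surface. The glossy genes of maize were named for mutants whose seedling leaves lack the dull wax bloom and shed water badly, and wax bloom is a trait of the juvenile leaves formed early in the plant's life.

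Transcript levels of 8 cuticular wax and epidermal identity genes were taken from a table of 30821 gene names at 30378 loci. The 8 genes were looked up by gene identifier. They had been chosen with the low-against-high nitrogen values of these same libraries known, and the CER1 locus on chromosome 5 had already stood out there as a large rise. For that reason the contrast between nitrogen levels is described for these 8 genes without a test. Each of the 8 had a row, a locus of its own and 1 match in the RefSeq gene table, from which the symbols gl1, glossy2, gl4a, gl8b, gl15, ocl1 and CER1 (carried by 2 loci) come.

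The plants were of the maize inbred B73, grown in hydroculture, with no other genotype or agent named. LN plants received 0.04 mM nitrogen and HN plants 4 mM, the control level. RNA came from the elongation zone of leaf 6, where cells lengthen after leaving the division zone, with 2 libraries per group, and whether 2 libraries of 1 group stem from different plants is not given, so any p-value reflects the spread of these libraries alone, which may be technical. Values are FPKM, a read level scaled to transcript length and library size, and HN1 and HN2 stand for the pair of HN columns, which carry 1 shared name. Absolute depth is unknown, and relative depth, with LN1 as 100%, was 91.6% in LN2, 75.8% in HN1 and 64.3% in HN2.

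The labelled tissue was set against marker genes. The meristem gene kn1 was at 0 FPKM in both LN libraries, against at most 0.0715 FPKM in HN. The 8 expansin and tubulin genes of growing cells summed to 2286 and 2375 FPKM in LN, against 2175 and 2925 FPKM in HN. Most of each sum was the tubulin gene TUBA2, at 1970.5 and 2070.1 FPKM in LN, against 1830.6 and 2493.5 FPKM in HN. The expansin genes went different ways. Without overlap, expA3 (mean 0.633 FPKM), expB2 and expB8 were lower in LN and expa1 was higher, while expa2, EXPA5 and expA4 overlapped. Among epidermal markers, which include 3 of the 8 genes, gl1, ocl1, gl8b and the receptor kinase gene cr4 summed to 92.5 and 110.0 FPKM in LN, against 78.6 and 110.6 FPKM in HN. Sums of markers of other cells differed with nitrogen, though not every gene in them did. The 25 histone and replication loci of dividing cells summed to 1376 and 1588 FPKM in LN, against 4453 and 8603 FPKM in HN, and 3 mesophyll genes to 98.1 and 185 FPKM in LN, against 654 and 903 FPKM in HN. Most of the mesophyll sum was cab-m1, at 64.7 and 158 FPKM in LN, against 554 and 799 FPKM in HN. The mesophyll genes pep1 and C4ppdkZm1 were also lower in LN, at 0.116 and 0.496 of the HN mean. The bundle sheath gene rca1 was at 1.73 and 2.74 FPKM in LN, against 10.2 and 12.95 FPKM in HN. The 4 vascular and secondary wall genes summed to 45.0 and 50.9 FPKM in LN, against 24.8 and 26.2 FPKM in HN, with cesa11 under 1 FPKM throughout. In such bulk RNA, fewer cells of a type and less RNA per cell cannot be told apart, and the part of these markers in the values below was not tested.

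The 8 genes covered a wide range of levels. By mean FPKM over the 4 libraries, a measure per transcript length, glossy2 came first at 900 FPKM, above 99.7% of the 22489 loci tested. The regulator ocl1 followed at 52.9 FPKM, then gl8b at 21.6, gl15 at 15.7 and gl4a at 10.7 FPKM. The CER1 loci on chromosomes 5 and 4 were at 9.19 and 2.80 FPKM, and gl1 was the lowest at 1.34 FPKM, above 6.61% of tested loci. The 2 upper steps of this order, and the step between gl15 and gl4a, separated the genes in each library without overlap of their ranges. The ranges of gl8b and gl15 overlapped, although gl8b was the higher in 4 of 4 libraries. The lower neighbours were not in a fixed order: gl4a was below the chromosome 5 CER1 locus in LN1 and LN2 and above it in HN1 and HN2, and the ranges of both CER1 loci, and of the chromosome 4 locus and gl1, also overlapped.

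**Figure D1:**
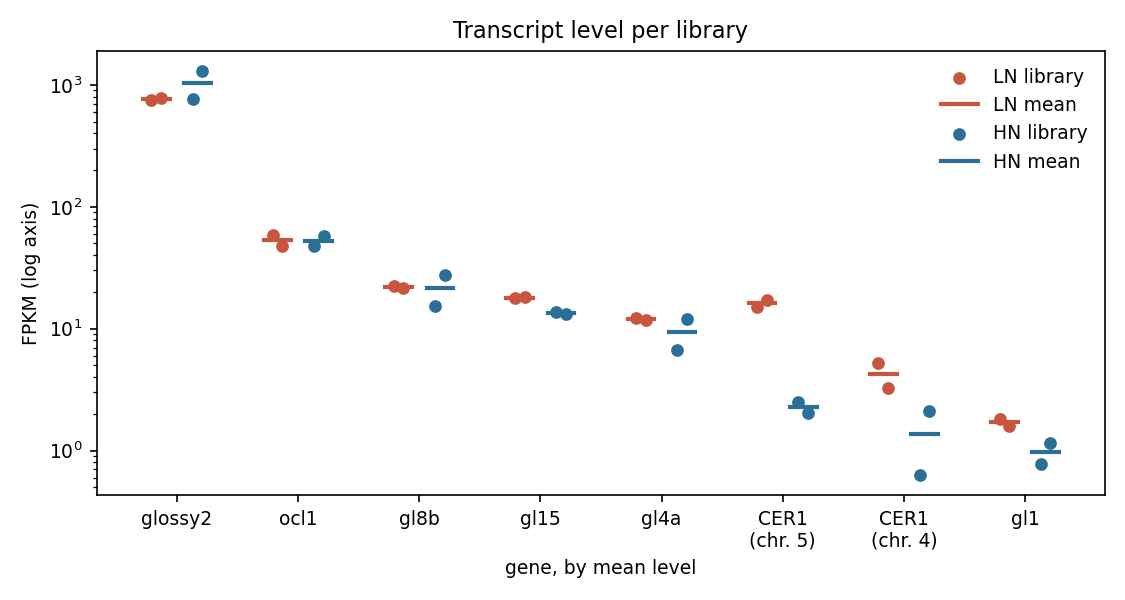
Transcript level in FPKM on a log axis for the 8 genes, ordered by mean level, with 1 point per library and a bar at the mean of each group of 2, LN left of HN. glossy2 lies near 900 FPKM and gl1 near 1.34 FPKM, and the largest gap between LN and HN is at the chromosome 5 CER1 locus.

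Between nitrogen levels, the CER1 loci differed most. The chromosome 5 CER1 locus was 7.10 times as high in LN as in HN and the chromosome 4 locus 3.10 times as high, by the ratio of mean FPKM. For the other 6 genes that ratio lay between 0.737 for glossy2 and 1.75 for gl1. The fit over all 22489 loci, limma on log2(FPKM + 1) with Benjamini-Hochberg adjustment at 0.05, holds the 8 genes too. It lists 1 of them, CER1 on chromosome 5, among its higher calls, which is no test of a gene already known to be high in LN, where 1.18% of tested loci were called higher and 3.80% lower (4.98% in all). Lower calls made up 76.3% of all calls, and 64.3% under quantile normalization. CER1 was not on that list when loci of low level were not filtered out. By the q-values of the authors' deposited table, both CER1 loci were called higher and no other of the 8, where 5.76% of tested loci were called higher and 13.6% lower. Both LN libraries lay above both HN libraries for 4 of the 8 genes and below for 0, and the same held for 36.6% and 29.9% of all tested loci. As the genes were chosen with this contrast known, nothing is read from these counts.

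**Figure D2:**
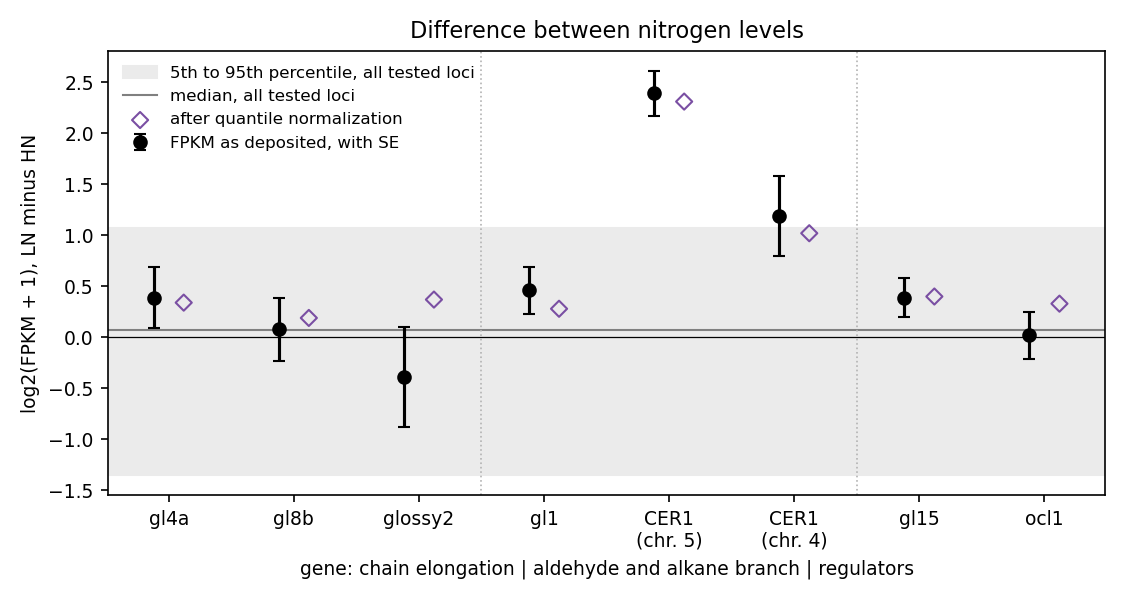
Difference in log2(FPKM + 1), LN minus HN, for the 8 genes grouped by role, as black points with the standard error from limma (2 LN and 2 HN libraries) and as open diamonds after quantile normalization. The grey band spans the 5th to 95th percentile of all tested loci (-1.35 to 1.07); the points of both CER1 loci lie above it, the chromosome 4 diamond (1.02) lies inside it, and glossy2 changes sign between the points and the diamonds.

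CER1 and gl1 stand at the point where very long acyl chains are turned into aldehydes and alkanes. In Arabidopsis CER1 works together with CER3 in forming alkanes, and gl1 of maize is a relative of CER3. The CER1 locus GRMZM2G066578 (chromosome 5, 29918039 to 29925862; positions are given on B73 RefGen_v3) was at 14.96 and 17.26 FPKM in LN1 and LN2, against 2.49 and 2.05 FPKM in HN1 and HN2. Both LN libraries were several times above both HN libraries, and the pairs were close together. The mean was 16.1 ± 1.63 FPKM in LN and 2.27 ± 0.312 in HN (SD, n = 2), a log2 difference of 2.39 (SE 0.22), which is larger than that of 99.7% of tested loci.

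The second CER1 locus, GRMZM2G099097 (chromosome 4, 171759786 to 171764794), was at 5.23 and 3.25 FPKM in LN1 and LN2, against 0.628 and 2.11 FPKM in HN1 and HN2. LN libraries were again above HN libraries, but both pairs were loose, and HN2 came close to the lower LN value. The means were 4.24 ± 1.41 FPKM in LN and 1.37 ± 1.05 in HN (SD, n = 2), with a log2 difference of 1.19 (SE 0.39). With a library left out this difference lay between 0.73 (without HN1) and 1.66 (without HN2). The chromosome 5 locus held 74.1% and 84.2% of the summed FPKM of both CER1 loci in LN1 and LN2, against 79.8% and 49.3% in HN1 and HN2. The sum was 20.2 and 20.5 FPKM in LN, against 3.12 and 4.15 FPKM in HN, so the LN libraries were nearly equal. Whether the 2 loci share reads was not tested.

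The gene gl1, GRMZM2G114642 (chromosome 7, 118550915 to 118556690), was at 1.80 and 1.60 FPKM in LN1 and LN2, against 0.778 and 1.16 FPKM in HN1 and HN2. The groups did not overlap, but all 4 values were low, near the filter of 1 FPKM in at least 2 libraries, which each of the 8 genes passed. The means of 1.70 ± 0.145 FPKM in LN and 0.970 ± 0.272 in HN (SD, n = 2) gave a log2 difference of 0.46 (SE 0.23). On the log2(FPKM + 1) scale the change of so weak a gene is understated, and with a pseudocount of 0.1 FPKM the difference was 0.77.

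Chain elongation is carried here by gl4a, gl8b and glossy2. gl4a belongs to the ketoacyl-CoA synthases, the condensing enzymes that set chain length. gl8b encodes a ketoacyl reductase, the enzyme of the elongase that acts after condensation, and maize has a near-identical copy, gl8a, so its value may include reads of the copy. glossy2 belongs to the BAHD acyltransferase family and resembles Arabidopsis CER2, which is needed for the longest chains.

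GRMZM2G003501, gl4a (chromosome 4, 166858870 to 166860792), was at 12.2 and 11.9 FPKM in LN1 and LN2, against 6.69 and 11.9 FPKM in HN1 and HN2. GRMZM2G087323, gl8b (chromosome 4, 132787073 to 132790535), was at 22.2 and 21.4 FPKM in LN, against 15.2 and 27.5 FPKM in HN. GRMZM2G098239, glossy2 (chromosome 2, 10630671 to 10633711), was at 749 and 778 FPKM in LN, against 773 and 1301 FPKM in HN. In all 3 the LN libraries were nearly equal, HN1 was the lower and HN2 the higher HN library, and the groups overlapped.

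The means were 12.03 ± 0.232 FPKM in LN and 9.31 ± 3.70 in HN for gl4a, a log2 difference of 0.39 (SE 0.30; all SDs here have n = 2). For gl8b they were 21.8 ± 0.609 FPKM in LN and 21.3 ± 8.66 in HN, a difference of 0.08 (SE 0.31). For glossy2 they were 764 ± 20.7 FPKM in LN and 1037 ± 374 in HN, a difference of -0.39 (SE 0.49). Each of these 3 differences is within 1.5 times its standard error. The sign of the glossy2 difference also turned under quantile normalization, to 0.37, and that of gl8b without HN1, to -0.32.

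The 3 elongation genes moved together within the HN pair. HN2 exceeded HN1 by 0.75 in gl4a, 0.81 in gl8b and 0.75 in glossy2 on the log2(FPKM + 1) scale, where the median size of the HN2 to HN1 difference over all tested loci was 0.40. The gap was not particular to them, as the chromosome 4 CER1 locus had a larger one in the same direction, 0.93. Between LN2 and LN1, gl4a, gl8b and glossy2 differed by -0.04, -0.05 and 0.06, against a median size of 0.14 over all tested loci. Of the 8 genes, 6 were higher in HN2 than in HN1, and the HN pair was further apart than the LN pair in 7 of 8. A wider HN pair is general here, as the medians of 0.40 and 0.14 over all tested loci show. With its sign kept, the median of HN2 minus HN1 over all tested loci was 0.07. The share of all loci with either pattern was not counted, so nothing is read from these counts. HN2 was the shallowest library and had the highest FPKM of dividing-cell markers. The FPKM total over all loci also differed, at 666397 in LN1, 710263 in LN2, 814307 in HN1 and 1113329 in HN2. The median went the other way, at 4.90, 4.933, 4.422 and 4.045 FPKM in the same order. FPKM levels of abundant genes are thus not fully comparable between libraries. The part of any of these in the levels above was not tested.

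**Figure D3:**
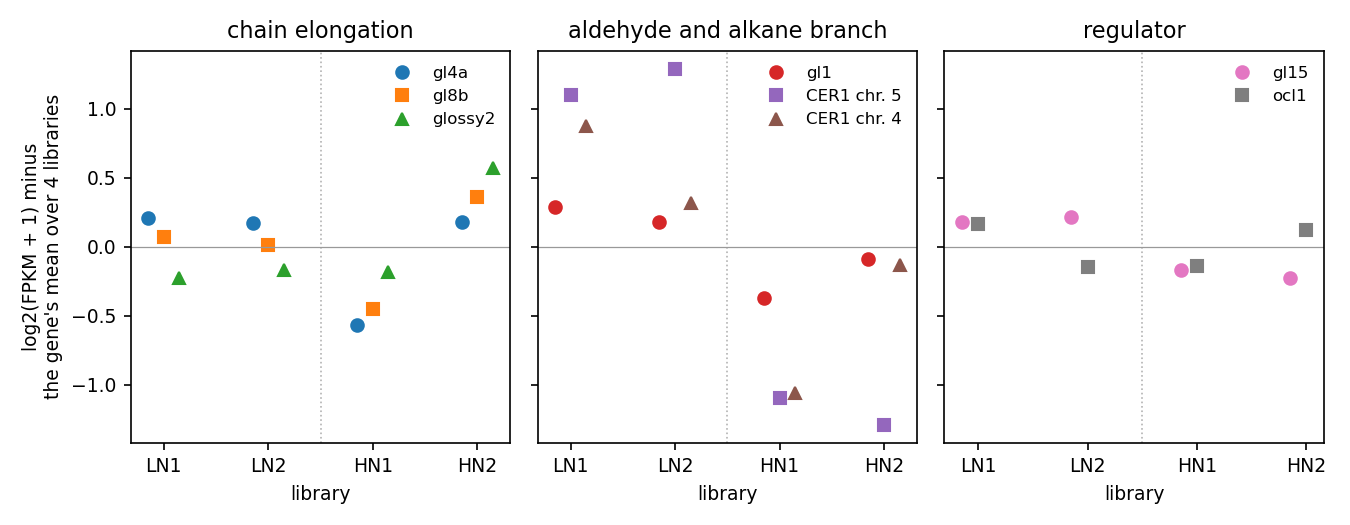
log2(FPKM + 1) of each gene minus its own mean over the 4 libraries, by library and by role, with LN1 and LN2 left of HN1 and HN2. The 3 chain-elongation genes share a gap between HN1 and HN2 of 0.75 to 0.81, and CER1 on chromosome 4 has a wider one of 0.93. CER1 on chromosome 5 separates LN from HN with a small gap within each pair.

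Ratios between genes of the same library are free of a scaling factor common to the whole library, but not of a shift that depends on level. The FPKM of gl4a was 0.549 and 0.556 of that of gl8b in LN1 and LN2, against 0.440 and 0.434 in HN1 and HN2. Within the HN pair the ratio was thus far steadier than either level, while within the LN pair the levels themselves were already nearly equal. glossy2 was 33.7 and 36.4 times gl8b in LN, against 50.8 and 47.4 times in HN. The log2 ratio of gl4a to gl8b was thus 0.34 higher in LN and that of glossy2 to gl8b 0.48 lower (-0.48), with no overlap between groups in either. Under quantile normalization the difference, LN minus HN, was 0.37 for glossy2, 0.34 for gl4a and 0.19 for gl8b. The lower standing of glossy2 against gl8b in LN was thus not kept there. How many other gene pairs separate the groups without that normalization was not counted.

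Set against these genes, CER1 on chromosome 5 took up more of the set in LN. Its FPKM was 0.673 and 0.808 of that of gl8b in LN1 and LN2, against 0.163 and 0.0745 in HN1 and HN2. Relative to gl1 it was 8.29 and 10.8 times as high in LN, against 3.20 and 1.76 times in HN. glossy2 was 50.1 and 45.1 times as high as this CER1 locus in LN, against 310 and 636 times in HN. The log2 ratio of CER1 was 2.74 higher in LN against gl8b, 1.99 against gl1 and 3.22 against glossy2, without overlap in any of them. As this locus was chosen with its rise in LN known, these gaps restate that rise and are no separate result. Against the other CER1 locus it was 0.99 higher on average, but the groups overlapped, since LN1 stood at 1.51 and HN1 at 1.99.

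The regulators ocl1 and gl15 act upstream. ocl1 is a homeodomain gene of the HD-ZIP IV class, expressed in the outer cell layer, and raised OCL1 activity is known to induce wax genes in maize. gl15 encodes an AP2 transcription factor that keeps leaf epidermis in the juvenile, wax-bearing state and is held down by the microRNA miR172 as the plant matures. GRMZM2G026643, ocl1 (chromosome 3, 27552060 to 27559751), was at 59.1 and 47.4 FPKM in LN1 and LN2, against 47.7 and 57.4 FPKM in HN1 and HN2. The groups covered the same range, with means of 53.3 ± 8.29 FPKM in LN and 52.6 ± 6.88 in HN (SD, n = 2) and a log2 difference of 0.02 (SE 0.23), a sign that turned in 2 of the 9 limma settings.

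GRMZM2G160730, gl15 (chromosome 9, 96744515 to 96748148), was at 17.7 and 18.1 FPKM in LN1 and LN2, against 13.7 and 13.1 FPKM in HN1 and HN2. Both LN libraries were above both HN libraries, and each pair was tight. The means were 17.9 ± 0.312 FPKM in LN and 13.4 ± 0.434 in HN (SD, n = 2), a ratio of 1.34 and a log2 difference of 0.39 (SE 0.19). That difference is larger than that of 70.5% of tested loci, and so is not unusual in size. It stayed between 0.36 and 0.42 in each of the 9 limma settings tried. Between 2 libraries of a group gl15 differed by at most 0.06 on this scale, the least of the 8 genes. Set against ocl1, gl15 stood at a ratio of 0.299 and 0.383 in LN, against 0.287 and 0.228 in HN, which is a narrow gap.

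Other genes of wax and cuticle formation came from a list of names, with the 8 genes left out, and limma p-values are given for these. The list, too, was chosen with earlier results of these data known, so its counts and p-values are a description. The 10 genes found by name were 3 lipid transfer genes, 4 regulator genes and 3 genes of acyl chain supply. Most enzymes that make or export wax and cutin were thus not covered. Of 10 tested genes 0 passed limma's threshold, while 2 were higher in LN and 1 was lower when p was left unadjusted (threshold 0.05). That threshold was passed by 15.9% of all tested loci as higher and by 16.4% as lower. In the authors' deposited table, higher calls numbered 1 and lower calls 2, where 5.76% and 13.6% of tested loci were called. The median log2 difference was 0.29, with 7 positive and 3 negative, beside a median of 0.07 and 54.7% positive over all tested loci. The 3 negative ones were the lipid transfer protein genes, whose products bind lipids outside the cell and are very abundant in young epidermis. plt1 was at 204 and 197 FPKM in LN1 and LN2, against 318 and 637 FPKM in HN1 and HN2, with a log2 difference of -1.16 (SE 0.42, limma adjusted p = 0.132). LTP3 was at 1341 and 1223 FPKM in LN, against 1431 and 3826 FPKM in HN (log2 difference -0.87, limma adjusted p = 0.441). For plt2 the difference was -0.30, with HN2 again the highest library, and it turned to 0.53 under quantile normalization and to 0.14 without HN2. LTP3 was at -0.16 without HN2, and plt1 at -0.28 under quantile normalization. The authors' deposited table called plt1 and LTP3 lower.

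The genes that supply and lengthen acyl chains gave differences above 0 that did not pass, and in 2 of the 3 the sign turned with a library left out. fae1, named for fatty acid elongase, was at 221 and 195 FPKM in LN1 and LN2, against 114 and 242 FPKM in HN1 and HN2 (log2 difference 0.32, limma adjusted p = 0.622). As in gl4a, gl8b and glossy2, HN2 was the higher HN library and the groups overlapped, and without HN1 the difference was -0.22. The acetyl-CoA carboxylase gene ACC1, which makes the 2-carbon donor of fatty acid synthesis, and FatB, a thioesterase that releases saturated fatty acids from the plastid, had log2 differences of 0.41 and 0.52 (limma adjusted p = 0.463 and 0.209), and without HN2 that of ACC1 was -0.10. 

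Regulator genes on this list also lay at or above 0. A gene named both Myb30 and MYB52 (GRMZM2G098179) was at 3.53 and 3.72 FPKM in LN1 and LN2, against 0.522 and 1.17 FPKM in HN1 and HN2. Its log2 difference of 1.35 (SE 0.26) missed the threshold narrowly (limma adjusted p = 0.0509), and the authors' deposited table called it higher. MYB94 was at 2.87 and 2.72 FPKM in LN, against 1.08 and 1.39 FPKM in HN (log2 difference 0.77, limma adjusted p = 0.0886). The other gene named MYB30 and the abundant WIN1, which shares its name with an Arabidopsis activator of cuticle genes, had differences of 0.26 and 0.01. These genes were matched by name alone.

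**Figure D4:**
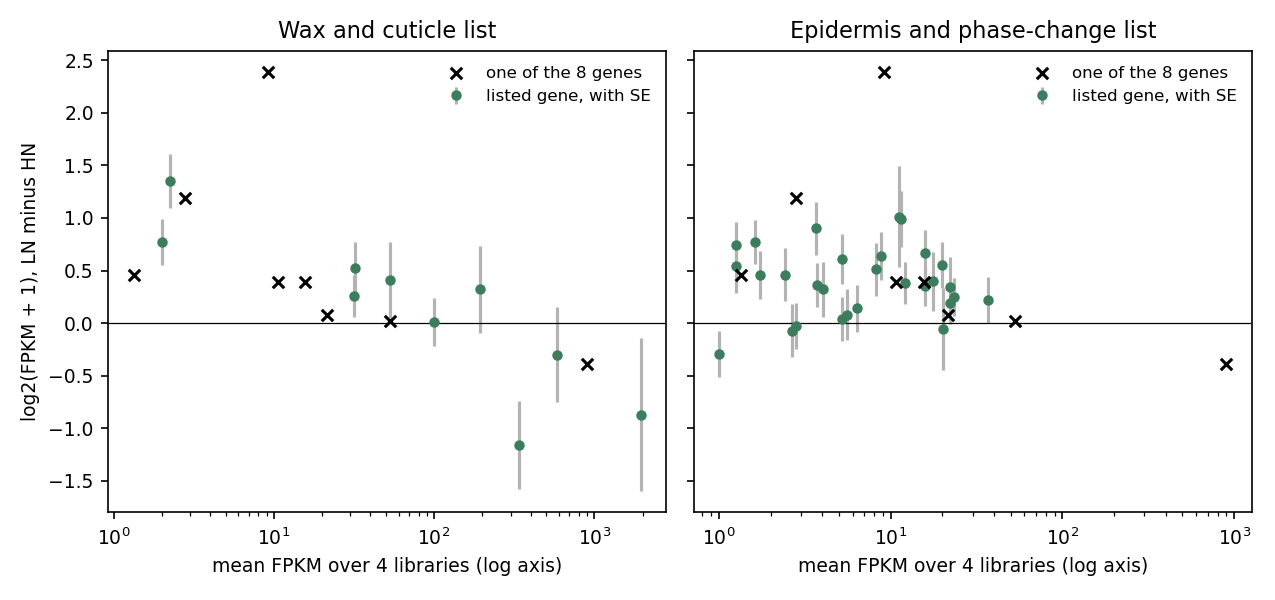
Difference in log2(FPKM + 1), LN minus HN, against mean FPKM on a log axis for the tested genes of both lists (green, with the standard error from limma over 2 LN and 2 HN libraries) and for the 8 genes (crosses, the same in both panels). The lipid transfer genes are the abundant points below 0 in the left panel, and most points of the right panel lie between 0 and 1.01.

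Genes of epidermal identity and of the change from juvenile to adult leaves formed the second list. It was also chosen with earlier results of these data known, so its counts and p-values are a description. Of 29 tested genes 0 passed limma's threshold, while 8 were higher in LN and 0 lower when p was left unadjusted (threshold 0.05), beside 15.9% and 16.4% of all tested loci. In the authors' deposited table, higher calls numbered 4 and lower calls 0, beside 5.76% and 13.6% of tested loci. Differences were positive for 25 and negative for 4, from -0.29 to 1.01, with a median of 0.38 beside 0.07 over all tested loci. For 17 of the 29 both LN libraries lay above both HN libraries, and for 1 below, beside 36.6% and 29.9% of all tested loci.

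The relatives of ocl1 were mildly higher in mean. All 6 tested HD-ZIP IV genes besides ocl1 had positive differences, from 0.19 for ocl5 to 0.67 for HDZIV14_OCL14, beside 54.7% positive over all tested loci. Of them 0 passed the threshold, with a lowest limma adjusted p of 0.113. ocl3, at 41.3 and 38.0 FPKM in LN1 and LN2, against 29.95 and 38.5 FPKM in HN1 and HN2, was the most abundant of them, and its groups overlapped. The groups also overlapped in ocl4, ocl5 and HDZIV8_OCL8, but not in HDZIV6_OCL6. HDZIV14_OCL14 was at 22.0 and 17.3 FPKM in LN, against 11.05 and 12.9 FPKM in HN, without overlap. The difference of ocl1 itself, 0.02, lay below all 6, but no test of that contrast was made. Under quantile normalization ocl1 was at 0.33, above ocl4 (0.14) and ocl5 (0.29) and below the rest, so this order depended on the normalization.

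Among genes with which gl15 shares the phase pathway, SBP genes, many of them targets of miR156 that promote adult traits, had 15 positive and 3 negative differences of 18. Over all tested loci 54.7% were positive, and under quantile normalization sbp19 and sbp6 turned to -0.08 and -0.13. The SBP median was 0.37, with 0 past the threshold (lowest limma adjusted p = 0.0842, for the ligule gene lg1). The authors' deposited table called 3 of the 18 higher and 0 lower, beside 5.76% and 13.6% of tested loci. sbp16 was at 25.9 and 21.5 FPKM in LN1 and LN2, against 17.6 and 14.2 FPKM in HN1 and HN2, a log2 difference of 0.55 (limma adjusted p = 0.151). The most abundant, sbp17, was at 26.1 and 24.9 FPKM in LN1 and LN2, against 21.7 and 21.0 FPKM in HN1 and HN2 (log2 difference 0.25, limma adjusted p = 0.390). ids1, an AP2 gene related to gl15, was at 14.9 and 14.2 FPKM in LN, against 11.8 and 3.65 FPKM in HN, so that its difference of 1.01 (SE 0.48, limma adjusted p = 0.207) rested on HN2, without which it was 0.28.

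Genes of epidermal cell fate and division gave uneven values. dek1, a membrane calpain needed for epidermal and aleurone identity, was at 15.5 and 15.6 FPKM in LN1 and LN2, against 9.45 and 5.65 FPKM in HN1 and HN2. Its log2 difference of 0.99 (SE 0.27, limma adjusted p = 0.0863) did not pass, while the authors' deposited table called it higher. cr4, a receptor kinase of the same identity pathway, was at 26.9 and 22.2 FPKM in LN, against 14.9 and 24.5 FPKM in HN, a difference of 0.34 (limma adjusted p = 0.449) that was -0.01 without HN1. pan1, a receptor-like gene that polarizes the divisions beside guard cells, had a difference of -0.06, which was 0.03 under quantile normalization and 0.49 without HN2.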

How the data were processed

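The authors deposited FPKM values for 4 libraries and their own comparison of LN with HN, with a log2 fold change, a p-value and a q-value, per the file headers. TopHat2, edgeR and the build B73 RefGen_v3 are named, without roles, per the submitters' processing notes; the sources used here do not say how FPKM was computed. The HN source label gives the dose in nM and the description in mM; mM was used.

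The 31324 rows cover 30378 loci, each fitted once. The 8 genes and both gene lists were chosen with earlier results of these data known. Loci with at least 1 FPKM in 2 or more libraries were fitted with limma 3.58.1 (limma-trend, R 4.3.3) on log2(FPKM + 1), group as the only term, with Benjamini-Hochberg adjustment. Residual degrees of freedom were 2 and prior ones 3.48, and the fit was tested on simulated data. Relative depth came from loci under 0.1 FPKM, as the most frequent ratio to LN1. No sequence was used.

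Named genes were the 8 genes, list genes past the threshold, the 6 most abundant of each list, and the 4 loci of a symbol and at least 5 FPKM nearest in pattern to the most abundant and the most changed of the 8. List genes outside that rule (FatB, both Myb30 genes, MYB94, lg1, sbp6, sbp19, dek1, ids1, ocl4, HDZIV6_OCL6, HDZIV8_OCL8, HDZIV14_OCL14) were named after their values were seen. FAR1.10 and hsbp1, whose names match a listed one by accident, and loci holding several genes were left out of the lists.
Alternatives were a pseudocount of 0.1, no filter, a filter at 5 FPKM, quantile normalization, each library left out and the authors' deposited test.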

Additional observations from a re-analysis of the deposited data

How the results depend on the processing

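No paired analysis was possible because both HN columns carry the same replicate number. Loci called numbered 1121, against 101 with a pseudocount of 0.1, 1 with no filter, 2720 under quantile normalization, 4359 in the authors' deposited table and 639 to 10893 when a library was left out. Of the 8 genes, 1 was called, against 0 with no filter, 2 in the authors' deposited table and 1 to 3 when a library was left out. The wax and cuticle list, with 0 called, had 1 under quantile normalization, 3 in the authors' deposited table and 0 to 6 when a library was left out. The epidermis and phase-change list, with 0 called, had 4 in the authors' deposited table and 0 to 10 when a library was left out. In all 4 the highest counts with a library left out came without HN1 or HN2, where the spread rests on the LN pair alone, and the cause of the other changes was not tested.

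Without HN1 the differences of glossy2 and gl15 were -0.77 and 0.42, and without HN2 they were -0.02 and 0.36. Differences of the chromosome 5 CER1 locus ran from 2.29 to 2.78, of the chromosome 4 locus from 0.73 to 1.74 and of gl1 from 0.28 to 0.77, of gl4a from 0.01 to 0.76, of gl8b from -0.32 to 0.49, of glossy2 from -0.77 to 0.37 and of ocl1 from -0.14 to 0.33. The median of the wax list was 0.56 under quantile normalization and 0.07 without HN1. Having 2 libraries a group, with absolute depth unknown, limits the precision of every difference.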

Other observations

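The loci whose centred log2(FPKM + 1) values over the 4 libraries lay nearest to glossy2, among 1457 loci with a symbol and at least 5 FPKM, were VAP27 (Euclidean distance 0.0345), MYBR32 (0.0601), Actin-7 (0.0780) and CNX (0.0837). VAP27 was at 52.4 and 53.8 FPKM in LN1 and LN2, against 53.3 and 88.7 FPKM in HN1 and HN2, so that HN2 alone was high, as in glossy2. Nearest to CER1 on chromosome 5 were see2b (0.433), NF-YA11 (0.456), NF-YA13 (0.647) and TCP30 (0.802), all at larger distances. These distances rest on 4 values each and are given as a description.

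The loci next to the 8 genes on their chromosomes gave no call by limma. Of 16 flanking loci, at gaps of 7412 to 280718 bp, 14 were tested and 0 passed limma's threshold. With p left unadjusted (threshold 0.05) limma called 4, beside 15.9% of all tested loci as higher and 16.4% as lower. The authors' deposited table called 3, beside 5.76% of tested loci as higher and 13.6% as lower. The neighbours of the chromosome 5 CER1 locus, GRMZM2G019006 and GRMZM2G167505, had log2 differences of -0.61 and -0.40, and that of gl1 at 7412 bp, GRMZM2G114751, had one of 0.77 (limma adjusted p = 0.155). It was at 44.4 and 52.4 FPKM in LN1 and LN2, against 21.0 and 36.7 FPKM in HN1 and HN2, well above gl1 in each library.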
